A study of Mus musculus with 8 samples.

Results

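The 10 genes described here, Acta2, Tagln, Cnn1, Cnn2, Myl9, Myh11, Actg2, Tpm2, Cald1 and Smtn, encode contractile and actin-binding proteins of smooth muscle. They were taken as a named list, selected on the measured ES cell signals of Tagln, Acta2 and Cnn1, which read higher in cells labelled Bmi1, and they are 10 of the 18193 genes that the array measures with a probe set of exactly 1 gene symbol. Together they have 20 such probe sets. Expression was measured on 8 Affymetrix arrays of mouse CCE embryonic stem (ES) cells, a line of strain 129/Sv, and of the embryoid bodies grown from them, with 2 arrays in each of 4 groups. Embryoid bodies are aggregates in which ES cells differentiate into a mixture of lineages, and here they were harvested at day 10. The groups were embryoid bodies from ES cells infected with a lentivirus carrying mouse Bmi1 cDNA, embryoid bodies from empty vector cells, Bmi1-infected ES cells, and control ES cells. The last group joined 1 untreated array and 1 empty vector array. Infected cells had been sorted for eGFP, and all ES cells were kept on gelatin with leukemia inhibitory factor. The labels do not name separate clones or cultures for the replicates. A p-value here therefore sets a difference against the spread between arrays of a group, which may be technical. That spread was pooled over the 4 groups, so it also holds the gap between the untreated and the empty vector ES cell array.

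The Bmi1 probe set did not read higher in the groups labelled Bmi1. Its signal was 7.48 and 8.51 on the labelled Bmi1 arrays of embryoid bodies and 9.35 and 9.67 on the vector arrays. Among ES cells, the labelled Bmi1 arrays gave 5.68 and 6.28, and the controls gave 7.41 and 7.74. Whether this probe set reads the lentiviral cDNA was not tested, so its signal does not settle the labels. Groups are therefore called "labelled Bmi1" throughout, and every direction rests on those labels. The arrays also fell into 3 sets with near-equal value distributions, the 4 ES cell arrays, embryoid body replicates 1 and embryoid body replicates 2. Sorted values differed by 0.0099 to 0.033 log2 units on average within sets, against 0.19 to 0.44 across them. Differences between embryoid bodies are therefore also given within each set. As a check of cell type, all 10 pluripotency genes read above the array median on every array, so their level and not the median separates the stages. Their mean was 12.23 to 12.32 in ES cells labelled Bmi1 and 12.55 to 12.61 in control ES cells. In embryoid bodies it was 8.67 to 9.86 in those labelled Bmi1 and 8.48 to 10.49 in the vector ones.

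Smooth muscle cells contract when myosin, switched on through its regulatory light chain, pulls on actin filaments. Calponins, caldesmon, transgelin and tropomyosin bind those filaments, and several of these genes are also used by fibroblasts and other cells that form stress fibres. Many of their promoters carry CArG boxes, the DNA element bound by serum response factor (SRF) with its coactivators of the myocardin family.

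Promoter windows from 250 bases before to 50 bases after the start site were held for 7 of the 10 genes in the RefSeq table used (GRCm38.p6). There was no entry for Tagln, Myh11 or Actg2. The CArG box was searched as CC, 6 bases of A or T, and GG, a pattern that reads the same on both strands. A CArG-like match had 1 base of that core other than A or T. The 3 windows with a match are shown, because they show how the element sits in genes that differ in their values below. Capitals mark the matches, and each window runs 5′ to 3′ on the gene's strand. They lie at chr19:34255324-34255623 on the minus strand for Acta2, chr10:79988350-79988649 on the plus strand for Cnn2 and chr2:156775214-156775513 on the plus strand for Myl9.
Acta2: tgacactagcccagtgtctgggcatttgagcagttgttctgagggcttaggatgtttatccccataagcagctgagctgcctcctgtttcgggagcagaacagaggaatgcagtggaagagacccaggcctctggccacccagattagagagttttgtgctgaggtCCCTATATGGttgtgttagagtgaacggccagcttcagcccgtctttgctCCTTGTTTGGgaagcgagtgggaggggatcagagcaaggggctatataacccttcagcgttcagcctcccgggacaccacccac
Cnn2: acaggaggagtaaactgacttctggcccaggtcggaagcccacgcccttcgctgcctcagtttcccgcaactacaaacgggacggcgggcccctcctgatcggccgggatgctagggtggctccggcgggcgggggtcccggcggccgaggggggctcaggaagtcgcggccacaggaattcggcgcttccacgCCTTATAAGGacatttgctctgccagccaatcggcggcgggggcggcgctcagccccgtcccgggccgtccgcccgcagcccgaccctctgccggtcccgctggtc
Myl9: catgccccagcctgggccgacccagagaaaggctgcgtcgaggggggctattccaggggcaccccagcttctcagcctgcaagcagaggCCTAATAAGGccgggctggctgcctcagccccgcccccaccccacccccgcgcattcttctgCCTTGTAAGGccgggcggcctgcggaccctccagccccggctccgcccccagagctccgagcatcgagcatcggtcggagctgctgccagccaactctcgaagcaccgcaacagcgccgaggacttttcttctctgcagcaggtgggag
Acta2, the smooth muscle actin, had 2 CArG-like matches, CCCTATATGG starting at base -84 and CCTTGTTTGG at base -34 from the start site. Cnn2 had 1 CArG box, CCTTATAAGG at base -56. Myl9 had a CArG box, CCTAATAAGG at base -161, and a CArG-like match, CCTTGTAAGG at base -99. A CArG box stood in 2 of the 8 windows of these genes and in 1.629% of all 32851 windows of the same length. Either form stood in 3 of the 8 windows and in 9.984% of all windows. A match is a run of letters and not a measured binding site.

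In embryoid bodies, whose values were not those the genes were selected on, none of the 9 genes bright enough to test passed the threshold. Of the 10 genes, 8 had a lower and 2 a higher mean in embryoid bodies labelled Bmi1 than in vector embryoid bodies. The median difference was -0.24 log2 units over the 10 genes and -0.04 over all genes tested, so the median of all genes was itself below 0. The 8 include Cald1 at only -0.0024, and Cald1, Cnn1 and Smtn among them changed sign between the sets. The limma test with Benjamini-Hochberg adjustment over 12982 genes called 0.139% of all genes, and for the 9 genes the lowest adjusted p was 0.81. None of the 9 had an unadjusted p under 0.05. With the set as a block, limma called 2.09% of all genes, again none of the 9, with a lowest adjusted p of 0.17. In bulk samples, fewer cells of a type and less RNA per cell cannot be told apart. Embryoid bodies labelled Bmi1 also had a mean cardiac marker signal of 7.91 to 8.18, against 6.23 to 7.76 in vector embryoid bodies, and the fibroblast markers had 10.54 to 10.67 against 10.02 to 10.93. Of the 15 cardiac markers, 13 were above the array median on both labelled Bmi1 arrays and 8 on both vector arrays, and their summed linear signal was 7446 to 8744 against 1716 to 6219. The part of these cells in the differences was not tested.

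Among the actins, Acta2 read 11.53 and 11.57 in the labelled Bmi1 embryoid bodies, against 12.01 and 11.99 in the vector ones. The groups did not overlap, and the difference was -0.45 (SE 0.25, limma adjusted p = 0.81), with -0.49 and -0.42 in the 2 sets. That SE rests on the spread of all 4 groups. The Acta2 SD was 0.031 in embryoid bodies labelled Bmi1 and 0.018 in vector ones. It was 0.45 in ES cells labelled Bmi1 and 0.28 in control ES cells. With embryoid body arrays only, limma again called no gene of the list. Actg2, the enteric smooth muscle actin, read 6.22 and 5.96 against 6.61 and 6.28, also without overlap. Its difference was -0.36 (SE 0.20, limma adjusted p = 0.81), and with the set as a block its limma adjusted p was 0.17 at an unadjusted p of 0.025. Both actins read lower within each set, but neither passed the test.

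Tagln, which encodes the actin-binding protein transgelin, read 8.49 and 8.39 in the labelled Bmi1 embryoid bodies, against 8.77 and 9.25 in the vector ones. The difference was -0.57 (SE 0.41, limma adjusted p = 0.88), with -0.28 in set 1 and -0.86 in set 2. Tagln, Acta2 and Actg2 were the 3 of 10 genes with both labelled Bmi1 arrays below both vector arrays, a pattern shown by 14.4% of all genes tested. Cnn2 and Myl9 also read lower within both sets, which makes 5 of the 10 genes against 36.3% of all genes tested.

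Myl9, the regulatory light chain, read 8.62 and 8.81 in the labelled Bmi1 embryoid bodies, against 8.65 and 9.33 in the vector ones. The calponin Cnn2 read 9.33 and 9.68 against 9.46 and 9.93, and its relative Cnn1 read 5.64 and 5.51 against 5.44 and 6.12. All 3 overlapped between groups, with differences of -0.28 (SE 0.33), -0.19 (SE 0.28) and -0.21 (SE 0.27). Cnn1 changed sign between sets, at 0.20 in set 1 and -0.62 in set 2.

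The other genes gave no direction that both sets shared. Tpm2, a tropomyosin, read 10.72 and 10.31 in the labelled Bmi1 embryoid bodies, against 10.96 and 9.99 in the vector ones, with -0.24 and 0.32 in the 2 sets. Cald1, caldesmon, read 12.03 and 12.20 against 12.35 and 11.88, with -0.32 and 0.32. Smtn, smoothelin, read 5.31 and 6.66 against 6.05 and 6.60, with -0.75 and 0.06. Myh11, the smooth muscle myosin heavy chain, was above the array median on none of the 8 arrays and was not tested. It read 5.52 and 4.93 against 5.66 and 4.78.

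**Figure D1:**
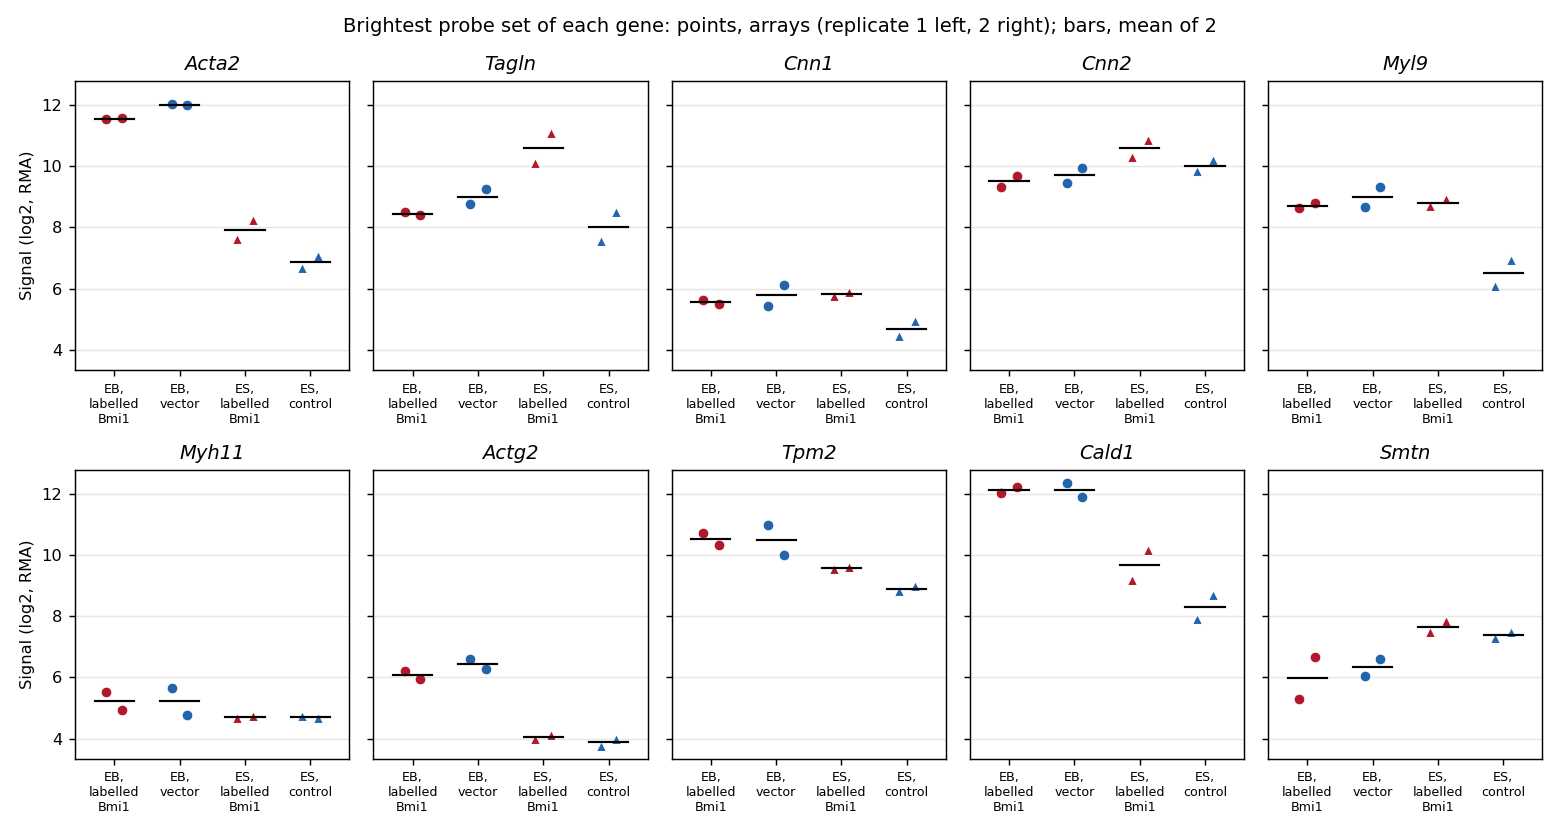
Log2 signal (vertical axis) of the brightest probe set of each gene on the 8 arrays, with embryoid bodies (EB) as circles, ES cells as triangles, labelled Bmi1 in red and vector or control in blue, and bars at the mean of 2 arrays. Tagln is highest in ES cells labelled Bmi1 at 10.11 and 11.07, while Acta2 is above 11 in every embryoid body array and between 6.69 and 8.25 in ES cells.

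In undifferentiated ES cells 9 of the 10 genes had a higher mean in cells labelled Bmi1 than on either control array. The differences were largest for Tagln and Myl9, while Myh11 gave no direction. Actg2, dim on every ES cell array, exceeded the vector array by only 0.074. The share of all genes under that rule was not computed. The ES cell contrast chose the list, so its values are a description with no test. The median difference over the 10 genes was 0.86 log2 units, against 0.0041 over all genes tested, for which the 5th and 95th percentiles were -0.33 and 0.61. Both arrays labelled Bmi1 were above both control arrays for 8 of the 10 genes and for 25.1% of all genes tested. The mean was at least 1 log2 unit higher for 5 of the 10 and for 1.96% of all. Over all genes, limma called 0.0462% in this contrast, and 1.66% with the set as a block, which parts only the embryoid body arrays.

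Tagln read 10.11 and 11.07 in ES cells labelled Bmi1, while the untreated array read 7.55 and the empty vector array 8.51. The difference of 2.56 is a 5.89-fold higher signal and ranked 6 of the 12982 genes tested. The lower of the arrays labelled Bmi1 was still above the higher control. Myl9 read 8.70 and 8.92 in ES cells labelled Bmi1, against 6.10 in untreated and 6.94 in vector ES cells. Its difference was 2.29, a 4.89-fold higher signal, and the smallest gap between an array labelled Bmi1 and a control was 1.76.

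Cald1 read 9.17 and 10.15 in ES cells labelled Bmi1, against 7.89 in untreated and 8.68 in vector ES cells, a difference of 1.37. Cnn1 read 5.76 and 5.90 against 4.45 and 4.95, a difference of 1.13. Acta2 read 7.61 and 8.25 against 6.69 and 7.08, a difference of 1.04. None of the 3 overlapped. Cnn1 was above the array median on both ES cell arrays labelled Bmi1, on 1 vector embryoid body array and on no control ES cell array, so it passed the filter on dim genes mainly through the group where it was high.

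Smaller differences stood at Tpm2, with 9.53 and 9.60 in ES cells labelled Bmi1 against 8.81 and 8.97 in control ES cells, and at Cnn2, with 10.31 and 10.87 against 9.83 and 10.19. Smtn read 7.48 and 7.83 against 7.29 and 7.47. Those 3 did not overlap, with differences of 0.68, 0.58 and 0.27. Actg2 read 3.99 and 4.13 against 3.78 and 3.99, below the array median on every ES cell array. Myh11 read 4.68 and 4.75 against 4.74 and 4.67, a mean difference of 0.012 that was 0.049 against the vector array and -0.025 against the untreated array. Of the 10 genes, 8 were above the array median on both ES cell arrays labelled Bmi1 and 7 on both control ES cell arrays. Myh11 and Actg2 were below it on every ES cell array, and Cnn1 was above it only on the 2 labelled Bmi1.

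The choice of control moved the size of these differences. The empty vector array read above the untreated array for 9 of the 10 genes, Myh11 being the exception, against 48.9% of all genes tested, with a median of 0.37 over the 10. Against the vector array alone, ES cells labelled Bmi1 were higher by 2.08 for Tagln, 1.87 for Myl9, 0.98 for Cald1, 0.88 for Cnn1 and 0.84 for Acta2. Against the untreated array alone the same genes were higher by 3.04, 2.71, 1.77, 1.39 and 1.23. Replicate 2 of the ES cells labelled Bmi1 also read above replicate 1 for all 10 genes, against 45.5% of all genes tested, with a median gap of 0.28 over the 10 genes and -0.02 over all genes tested. Marker lists of other cell types also differed between the ES cell groups, some without overlap. The fibroblast list averaged 5.76 to 5.79 in ES cells labelled Bmi1 and 5.77 to 5.82 in control ES cells, with 4 of 12 genes against 2 of 12 above the array median on both arrays. The pericyte list averaged 5.49 to 5.67 against 5.61 to 5.73, the cardiac list 5.05 to 5.14 against 5.17 to 5.18, and the streak and endoderm list 5.80 to 5.99 against 5.78 to 5.92. The skeletal muscle list averaged 5.49 to 5.58 against 5.62 to 5.67. Summed on the linear scale, the skeletal muscle list came to 1060 to 1588 in ES cells labelled Bmi1, against 1956 to 2907 in control ES cells. That sum rests mainly on Mylpf, by far the brightest gene of the list, at 9.42 and 10.23 against 10.63 and 11.31. The streak and endoderm list came to 3007 to 3513 against 2120 to 2879, and the cardiac list to 584 to 617 against 716 to 732. Ttn, the brightest cardiac gene in control ES cells, read 6.17 and 5.88 against 7.48 and 7.72, so it weighs heavily in the cardiac gap. The fibroblast list came to 5060 to 5133 against 5554 to 5721, and the pericyte list to 578 to 702 against 671 to 725. The pluripotency genes summed to 65371 to 69983 in ES cells labelled Bmi1 and 78203 to 81496 in control ES cells, and the part of any of these lists in the differences was not tested.

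**Figure D2:**
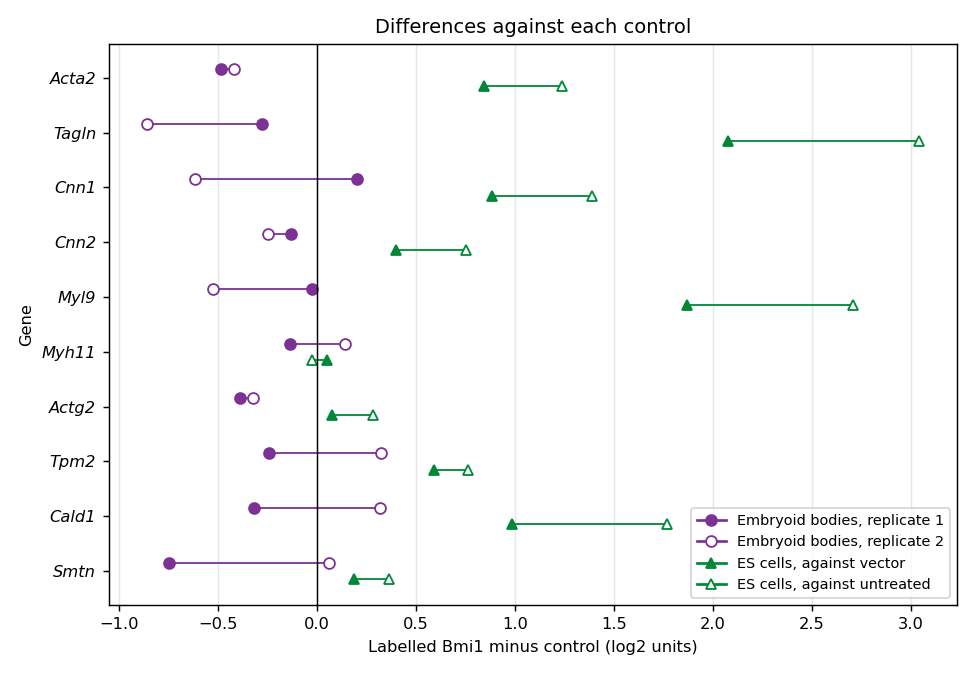
Difference of labelled Bmi1 minus control (horizontal axis, log2 units) for each gene, within each embryoid body set (circles) and in ES cells as the mean of both arrays labelled Bmi1 against the vector or the untreated array (triangles). Tagln lies at 2.08 and 3.04 in ES cells and at -0.28 and -0.86 in embryoid bodies.

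Beside the brightest probe sets, only 3 were above the array median on all arrays or all but 1. These 3, from Cald1 and Tpm2, also read higher in ES cells labelled Bmi1. Of all 20 probe sets, 19 read higher in ES cells labelled Bmi1 and 14 read lower in embryoid bodies labelled Bmi1. The 20 include the brightest sets, and so the ES cell values that chose the list. Shares over all probe sets were not computed, so these counts are a description and lend no support. Cald1 probe sets other than the brightest differed by 1.06, 0.81, 0.28 and 0.30 in ES cells, against 1.37 for the brightest. A further Tpm2 probe set above the median on all arrays differed by 0.73, while a dim one differed by -0.02. The remaining Acta2 probe sets were above the array median on no array and differed by 0.22 and 0.18. The brightest Acta2 and Cald1 probe sets are of a type that can read more than 1 transcript, so related transcripts may add to them.

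The 10 genes differed most in what they did between ES cells and embryoid bodies. Stage coincides with the sets, so stage and set cannot be told apart, and the median of all genes for vector embryoid bodies minus control ES cells was -0.24 as deposited, -0.04 after quantile normalization and -0.56 after median centring. Vector embryoid bodies read above control ES cells without overlap for 7 of the 9 genes tested, against 32.2% of all genes tested. Acta2 was higher by 5.11, Cald1 by 3.83, Actg2 by 2.56, Myl9 by 2.47, Tpm2 by 1.59, Cnn1 by 1.09 and Tagln by 0.98. Actg2 and Cnn1 were below the array median on both control ES cell arrays, so the size of their differences is uncertain. Actg2 was above the array median on every embryoid body array and on no ES cell array. It therefore passed the filter on dim genes only through the groups where it was high, and its place among the 7 lends no support. Myh11, too dim to test, read 5.66 and 4.78 against 4.74 and 4.67. Cnn2 and Smtn were the exceptions, at -0.31 and -1.06. These values share the control ES cell arrays with the contrast that chose the list and carry no test.

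Apart from Myh11, which was too dim to place, the order of levels across groups fell into 3 patterns. Acta2, Cald1, Actg2 and Tpm2 were highest in both embryoid body groups, lower in ES cells labelled Bmi1 and lowest in control ES cells, with Actg2 tied between an array of each ES cell group. Myl9 and Cnn1 in ES cells labelled Bmi1 lay within the range of the embryoid body arrays, 8.62 to 9.33 for Myl9 and 5.44 to 6.12 for Cnn1, and control ES cells lay below. Tagln, Cnn2 and Smtn were highest in ES cells labelled Bmi1, though for Smtn the smallest gap to a control ES cell array was only 0.010. Their remaining order differed, as vector embryoid bodies minus control ES cells came to 0.98 for Tagln, -0.31 for Cnn2 and -1.06 for Smtn. For Tagln the vector ES cell array at 8.51 lay above both embryoid body arrays labelled Bmi1, so these neighbours in the order did not separate. Embryoid bodies labelled Bmi1 minus ES cells labelled Bmi1 came to -2.15 for Tagln and 3.62 for Acta2.

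Across the 8 arrays Tagln and Acta2 ran apart, with a Pearson r of -0.09. Acta2 followed Actg2 (r = 0.99) and Cald1 (r = 0.98), while Tagln was nearest to Cnn2 (r = 0.76) and Cnn1 (r = 0.72) among the listed genes. The 5 genes most like Tagln among all tested were Hacd1, Gfod1, 9130008F23Rik, Nefm and Ccn1, with r from 0.95 for Hacd1 to 0.90 for Ccn1. Those most like Acta2 were Irs1, Timp3, Prss23, Has2 and Ets2, with r from 0.997 for Irs1 to 0.995 for Ets2, and each read higher in vector embryoid bodies than in control ES cells. These correlations describe 8 arrays that share stage and set. They also include the ES cell values on which Tagln, Acta2 and Cnn1 were selected, so the likeness of Tagln to Cnn1 partly restates that selection.

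**Figure D3:**
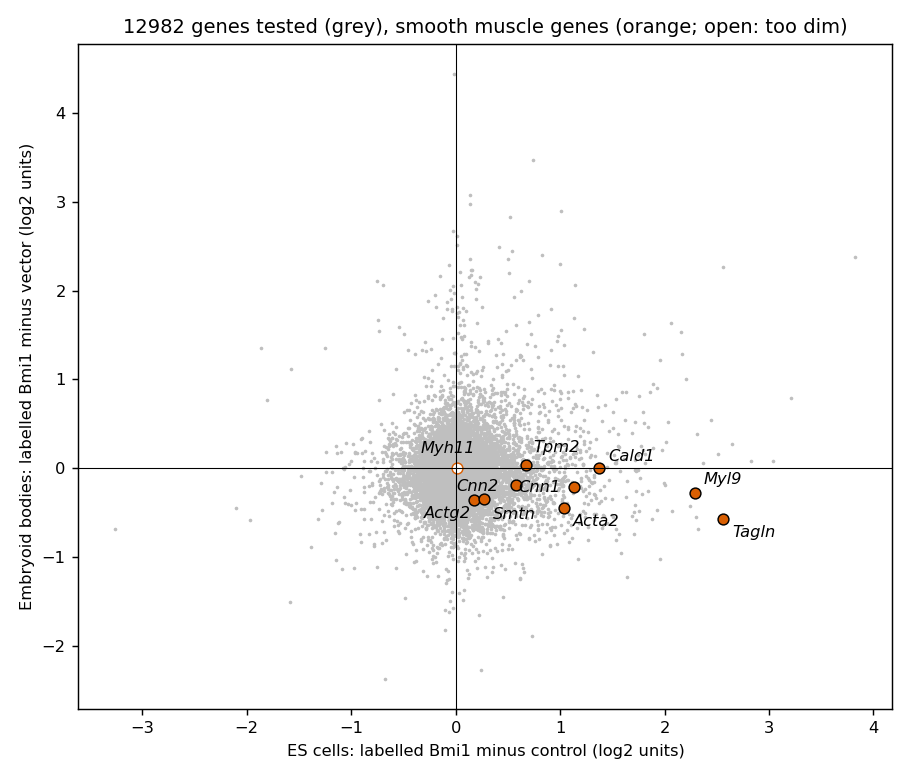
Difference in ES cells (horizontal axis) against difference in embryoid bodies (vertical axis), both labelled Bmi1 minus control in log2 units, for the 12982 genes tested in grey and the smooth muscle genes in orange, with Myh11 open because it was too dim to test. Tagln lies at 2.56 and -0.57, and the 10 genes lie right of 0 on the horizontal axis, which chose the list. Myh11 at 0.012, Actg2 at 0.18, Smtn at 0.27 and Cnn2 at 0.58 lie between the 5th and 95th percentiles of all genes tested, -0.33 and 0.61.

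Genes that act with the contractile proteins were followed through 11 further lists, in which 123 genes were tested. In embryoid bodies limma called 1 of the 123, against 0.139% of all genes tested. It was Pln, a regulator of the calcium pump in heart and smooth muscle. Pln read 7.69 and 7.82 in the labelled Bmi1 embryoid bodies, against 5.90 and 6.02 in the vector ones, and rose by 1.80 (SE 0.18, limma adjusted p = 0.033). With the set as a block 6 of the 123 were called, against 2.09% of all genes tested. Pln and the heart genes Myh6, Tnni3 and Ttn rose, by 3.47, 1.32 and 1.12 for the last 3, and the endoderm factors Gata4 and Sox17 fell by 1.04 and 0.83. Within sets Myh6 differed by 4.85 in set 1 and 2.10 in set 2, Tnni3 by 1.66 and 0.97, Ttn by 1.28 and 0.96, Gata4 by -0.92 and -1.17, Sox17 by -0.77 and -0.89, and Pln by 1.79 and 1.81. Vector embryoid body replicate 1 set the size for Myh6, which read 5.81 there and 8.81 in replicate 2, and without replicate 1 the Myh6 difference was 1.97. Without that replicate Tnni3 differed by 0.64 and Ttn by 0.27. Without vector replicate 2 the differences were -0.69 for Gata4 and -0.50 for Sox17. The Pln call held without vector replicate 2 and was lost when any other array was left out. Ttn is named here because it was called, after its value was seen. No other gene of the smooth muscle list was called by either fit, and its median difference was -0.06 over 12 genes.

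In ES cells limma called none of the 123, against 0.0462% of all genes tested. With the set as a block it called 4 of the 123, against 1.66% of all. In the fit without the block, 11 of the 123 had an unadjusted limma p under 0.05 in ES cells and 13 in embryoid bodies. The share of all genes under that rule was not computed, so nothing is read from these 2 counts. The block parts no ES cell arrays, so it left the ES cell differences unchanged and altered only the estimated spread. With ES cell arrays only, limma called Tpm4, Ttn and Tgfbr2, but not Thbs1 or Zyx. The 4 called with the block were Tpm4, a non-muscle tropomyosin, Zyx, a focal adhesion protein, Thbs1, the matrix protein thrombospondin, and Ttn. Of these, Ttn fell and the others rose. Thbs1 read 7.23 and 8.13 in ES cells labelled Bmi1, against 5.06 and 5.68 in control ES cells, a difference of 2.30 (limma adjusted p = 0.13, and 0.032 with the block). Tpm4 read 11.43 and 11.44 against 10.55 and 10.58, a difference of 0.87 (limma adjusted p = 0.18, and 0.032 with the block). Zyx differed by 0.74 (block adjusted p = 0.048, limma) and Ttn by -1.58 (block adjusted p = 0.016, limma). The matricellular genes Ccn1 and Ccn2 differed by 1.71 and 0.80, the actin-linked genes Csrp1 and Pdlim7 by 0.98 and 0.79, and Nexn, which encodes the actin-binding protein nexilin, by 1.06, none of them passing either fit.

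None of the 13 regulators of smooth muscle genes tested was called in either contrast by either fit. In ES cells Srf differed by 0.30, the receptor Notch3 by 0.37 and the transcription factor Klf4 by -0.50. The SRF coactivators Mrtfa, Mrtfb and Myocd, picked for their role after their values were seen, differed by -0.15, 0.08 and -0.10. List medians in ES cells were 0.47 for the 8 matricellular and immediate targets, 0.14 for the 21 general actin cytoskeleton genes, 0.12 for the 15 TGF-beta pathway genes and 0.06 for the 12 other smooth muscle genes, against 0.0041 over all genes tested. The pluripotent list had a median of -0.23, with 0 of 10 genes above 0 and none called.

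**Figure D4:**
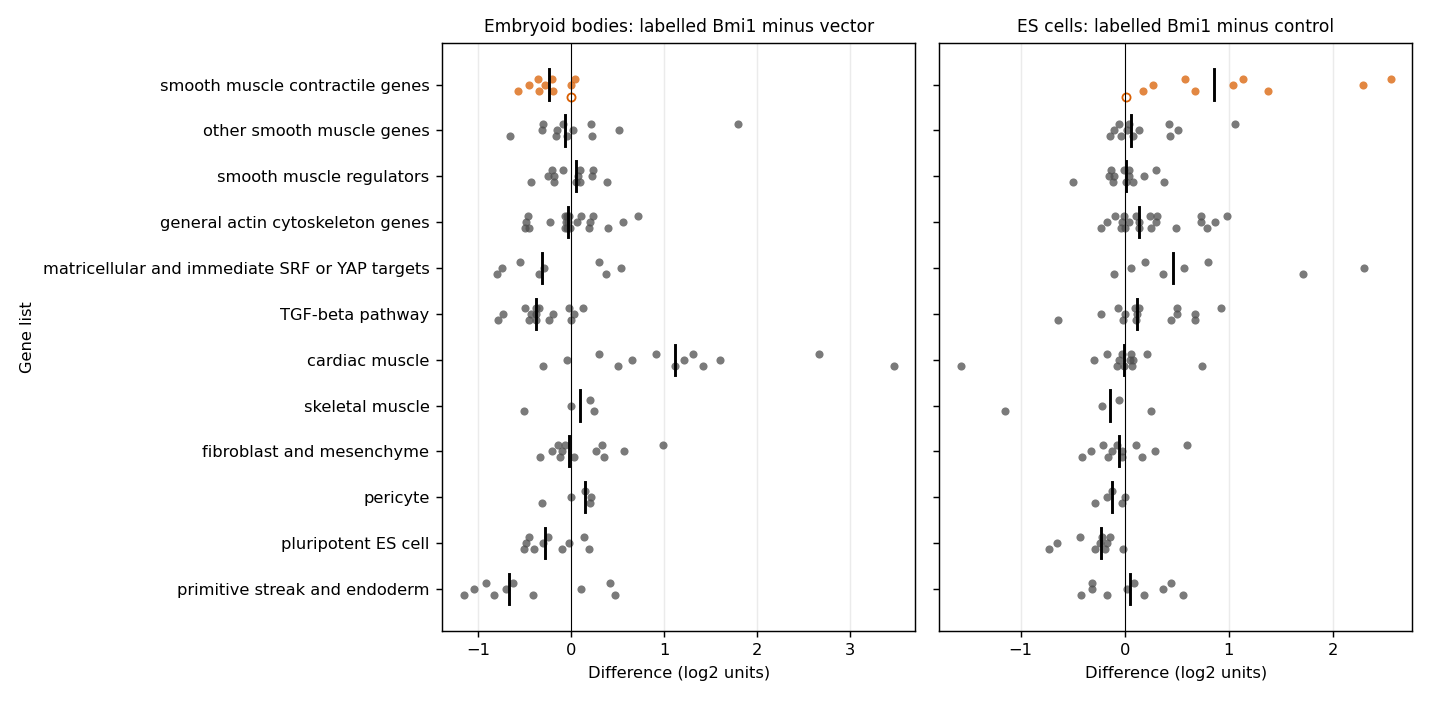
Differences of labelled Bmi1 minus control (horizontal axis, log2 units) by gene list (rows), in embryoid bodies on the left and ES cells on the right, with a point for each gene tested, Myh11 open, and black bars at the median. The smooth muscle contractile genes have medians of -0.24 and 0.86, and the cardiac list stands at 1.12 in embryoid bodies. No cardiac gene was called there in the 4-group model, and the 2 sets differed in size. Myh6 differed by 4.85 in set 1 and 2.10 in set 2. Actc1 and Myl7, picked for their gap between sets, differed by 2.89 and 2.40 in set 1 but by 0.33 and 0.03 in set 2.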

How the data were processed

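Total RNA of 8 samples was hybridised to Affymetrix arrays. The deposited values are log2 signals per probe set, made by the authors with RMA per the submitters' processing notes; software versions and settings are not given in the sources used here. Of 45101 probe sets 64 array controls were left out, and symbols came from the platform annotation: 34945 had 1 symbol, 932 several and 9160 none. Each gene was represented by its brightest one-symbol probe set, and 12982 of 18193 genes, above the array median on at least 2 arrays, were tested. No further normalization was applied. A model of 4 groups was fitted with limma 3.58.1 in R 4.3.3, leaving 4 residual degrees of freedom, with two-sided p-values adjusted by Benjamini-Hochberg and a threshold of 0.05. The fit was tested on simulated data. An alternative that added the set as a block left 3 degrees of freedom. That block parted embryoid body replicates 1 from replicates 2 and parted no ES cell arrays. Arrays have no read depth, and their number limits the precision.

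The members and gene lists were chosen with earlier results of these data known. Every member is named. Of other lists, genes with the smallest p were named, up to 4 in a contrast. Likeness is Pearson's r over 8 arrays, for the 5 highest genes. Of 141 list entries 137 had a probe set, 4 of them through a synonym.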

Additional observations from a re-analysis of the deposited data

Results flagged for a closer look

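The mean differences of Acta2 and Tagln had opposite signs in the 2 stages, but neither passed the test in embryoid bodies (limma adjusted p = 0.81 and 0.88). Both ES cell arrays labelled Bmi1 read above both control ES cell arrays, as for 25.1% of all genes tested. Both embryoid body arrays labelled Bmi1 read below both vector embryoid body arrays, as for 14.4% of all genes tested. With the mean of its probe sets, the others being dim, the Acta2 difference in embryoid bodies was -0.03. The embryoid body difference minus the ES cell difference was -1.49 for Acta2 and -3.13 for Tagln. The difference between the stages was not tested, because the ES cell values chose these genes.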

How the results depend on the processing

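The count of 0 called members in embryoid bodies held in all 19 alternatives that give one, among 20 settings of which 8 leave out 1 array. The median of the members stayed between -0.43 and -0.23 in embryoid bodies and between 0.68 and 1.03 in ES cells as arrays were left out. It was -0.08 in embryoid bodies and 0.61 in ES cells over every probe set, and 0.54 in ES cells with the mean of probe sets. That mean took Acta2 to -0.03 in embryoid bodies and 0.48 in ES cells, and Cald1 to 0.77 in ES cells. List genes called in embryoid bodies, 1 as reported, numbered 6 with the replicate block. They numbered 0 with the filter at the 75th percentile, median centring, the trend and robust prior, embryoid body arrays only, or either control ES cell array alone. They ranged from 0 to 10 as arrays were left out, with 10 without vector embryoid body replicate 2. List genes called in ES cells, 0 as reported, numbered 4 with the replicate block and 3 with ES cell arrays only (Tpm4, Tgfbr2 and Ttn). The embryoid body difference of Cald1 turned to 0.087 after quantile normalization, and that of Myh11, which was not tested, to -0.030 there and -0.0061 after median centring. Leaving out arrays turned the sign for Tpm2 (-0.44 to 0.52), Cald1 (-0.23 to 0.23), Smtn (-1.02 to 0.33), Cnn1 (-0.55 to 0.13), Cnn2 (-0.42 to 0.040), Myl9 (-0.62 to 0.064) and Myh11 (-0.44 to 0.44). The cause was not tested. Embryoid body arrays of one number deviated together (r = 0.72), but the labels tie them to no shared culture.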

Other observations

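The TGF-beta pathway genes, which include ligands and receptors known to act on smooth muscle genes, had a median difference of -0.37 in embryoid bodies, with 3 of 15 above 0 and none called. Tgfb1 read 6.94 and 7.38 in the labelled Bmi1 embryoid bodies, against 7.89 and 8.00 in the vector ones (-0.79, limma adjusted p = 0.42). The matricellular list had a median of -0.32 in embryoid bodies, the streak and endoderm list -0.66, and the skeletal muscle list 0.10 in embryoid bodies and -0.14 in ES cells, with none called in the 4-group model.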
